A study of Mus musculus with 4 samples.

Results

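The Cd28, Ctla4 and Icos cluster is a stretch of mouse chromosome 1 that holds the genes of 3 related T cell receptors side by side. Its accessible sites were taken as every DNase I peak whose midpoint lay between 60780000 and 61080000 of mm9, a window of 300 kb. This gave 51 of the 84735 listed peaks, and peaks overlapping by at least 1 bp merged into 23 of 38986 regions. The 23 regions are called sites 1 to 23 here, in order along the chromosome.

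DNase I cuts open chromatin, and sequencing of the released DNA (DNase-seq) shows where it cut. Naive CD8+ T cells from spleen (GFP+ TCRbeta+ CD62Lhi CD44lo-med) were cultured with IL-7 plus IL-15, which keep T cells alive in the absence of antigen, over 72 h. All mice carried hCD2-Cre, a recombinase driven by human CD2 sequences in lymphocytes, and Rosa26-lsl-GFP, a reporter that Cre switches on. There were 2 libraries with wild-type Tcf1 and Lef1 (WT) and 2 from double floxed mice, labelled Tcf1-/-Lef1-/- (double knockout, DKO). Mouse age, and whether replicates came from separate animals, are not given in the labels, so differences among replicates may be technical.

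Cd28 is the main costimulatory receptor of T cells and binds Cd80 and Cd86 on antigen-presenting cells. Ctla4 binds the same ligands more tightly and restrains the response, and Icos, bound by Icosl, is a costimulator that rises after activation. Tcf1 and Lef1 are transcription factors of 1 family that act throughout T cell development. The comparison asks which sites of the cluster are listed with and without them.

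In RefSeq's GRCm38.p6 table the protein-coding order on chromosome 1 is Raph1, Cd28, Ctla4, Icos and Pard3b, with lncRNA genes and pseudogenes between the 3 receptors. An annotation of mm9 was not used here. Approximate mm9 landmarks at hand were 60.8 Mb for Cd28, 60.944 Mb for Ctla4 and 61.035 Mb for Icos. The landmarks of Cd28 and Ctla4 are 144 kb apart, but the left ends of these genes are 163 kb apart in the GRCm38.p6 table. This mismatch does not show which of the landmarks is off. The Ctla4 landmark was not used to place a site, and no site is called a promoter or placed in an exon or intron. By the Cd28 and Icos landmarks, taken as given, site 22 lay closest to Icos and site 1 closest to Cd28. Whether the CD8+ label is matched by accessible sites at its marker genes was not tested, since an mm9 annotation was not used.

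Because Tcf1 and Lef1 are the factors removed, the RefSeq start-site window of Ctla4, from 250 bases before to 50 after the start, was searched for the sequence they are known to bind. Of the 3 receptors, Ctla4 was matched in the promoter table. The search used CTTTGAA and CTTTGAT on both strands. It found 1 match, CTTTGAT on the minus strand, at bases 27 to 33 counted from 1 at the start site. The 30 bases around it are chr1:60909040-60909069 of GRCm38.p6, plus strand, with the match in capitals as it reads on that strand:
Ctla4: acgtaccttggATCAAAGctgtctatataa
At least 1 of the 2 sequences was present in 8.65% of the 32851 start-site windows of the same length, so such a match is a description and not a site of binding. RUNX (TGTGGT), ETS (GGAAGT), STAT (TTCNNNGAA) and AP-1 (TGANTCA) motifs, also searched on both strands, had no match in these letters. They were present in 16.8%, 23.8%, 8.30% and 7.81% of all windows. The coordinates of this sequence belong to GRCm38.p6 and cannot be set beside the mm9 positions of the sites.

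Libraries differed in how many peaks were listed. WT replicates 1 and 2 had 17521 and 11073 listed peaks, and DKO replicates 1 and 2 had 34788 and 21353. Both DKO lists and neither WT list had peaks on chromosome Y, 55 and 57 of them. That difference moves with genotype and cannot be told apart from it. Each peak carries the authors' fold enrichment, the fragment pileup at the summit over the local background. The pileup behind each fold was solved from the fold and its p, and it gives the depth of a call: cluster peaks rested on 8 to 58 fragments. Intervals given with fragment numbers are exact Poisson intervals at 95% and cover counting error only.

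The cluster had more listed peaks in DKO than in WT on average, but at the deposited threshold the genotypes met. WT replicate 1 had 12 peaks in the cluster, WT replicate 2 had 6, DKO replicate 1 had 21 and DKO replicate 2 had 12. WT replicate 1 and DKO replicate 2 were thus equal. The means were 9.0 ± 4.2 for WT and 16.5 ± 6.4 for DKO (SD, n = 2 each). The mean log2 difference, DKO minus WT, was 0.90, and the exact two-sided permutation p was 0.67, where the smallest p allowed at 2 against 2 is 0.33. Over the whole lists the log2 difference was 0.97. In 42.9% of 5029 windows of 300 kb with a peak, each DKO library had more peaks than each WT library. The cluster was not among such windows. With a −log10 q of at least 5 or 10 the genotypes no longer met, and the log2 difference was 1.12 or 1.56 (exact permutation p = 0.33 each, the smallest allowed). At 10 the WT libraries had 3 and 2 peaks in the cluster and the DKO libraries 13 and 4, for replicates 1 and 2. The whole-list difference and the share of windows are given at the deposited threshold only. Whether the rise at stricter thresholds is particular to the cluster was not tested.

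The share of its own list that a library placed in the cluster takes list length into account. It was 0.0685% for WT replicate 1, with a Clopper-Pearson 95% interval of 0.0354 to 0.120%. For WT replicate 2 it was 0.0542% (0.0199 to 0.118%). DKO replicate 1 placed 0.0604% (0.0374 to 0.0923%) and DKO replicate 2 placed 0.0562% (0.0290 to 0.0981%). The 4 intervals overlap. They treat the peaks of a list as independent draws and cover counting error only, and a difference in share was not tested. Without WT replicate 1 or WT replicate 2 the log2 difference in peak number was 1.40 or 0.40, and without DKO replicate 1 or DKO replicate 2 it was 0.50 or 1.31.

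**Figure D1:**
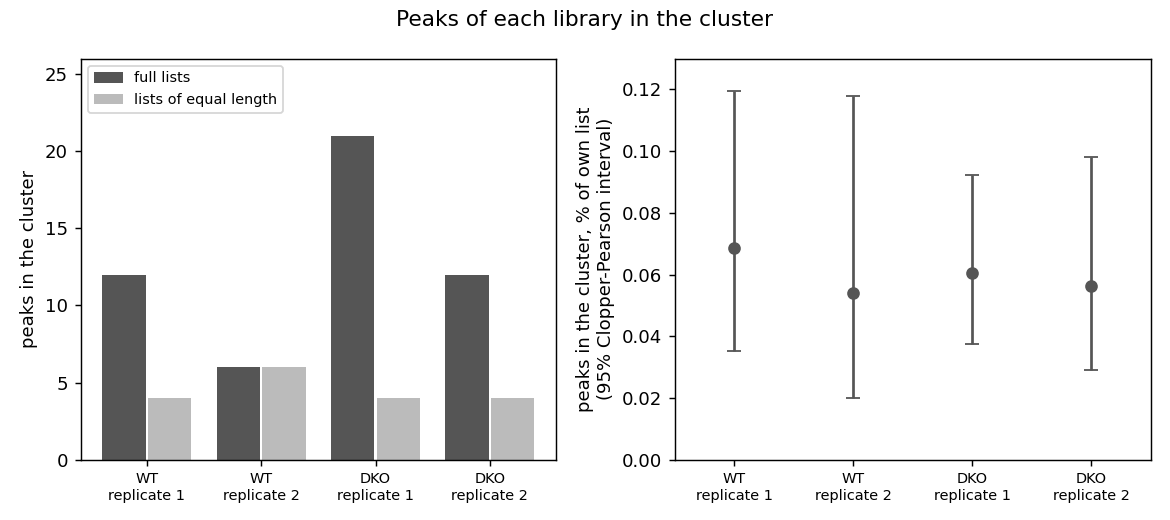
Peaks of each library in the cluster, as a number (left, bars from 0, dark for full lists and light for lists of equal length) and as a percentage of the library's own full list with its 95% Clopper-Pearson interval (right). Numbers over the full lists run from 6 to 21, but the shares lie between 0.0542 and 0.0685% with overlapping intervals.

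The cluster was dense in sites. Autosomal windows of 300 kb, laid end to end and counted where they had a region, held a median of 6 regions, and 3.66% of the 4832 windows held 23 or more. The sites fell into 4 stretches when parted at gaps over 20 kb, a distance chosen after the sites were seen. From left to right the stretches held 7, 1, 10 and 5 sites. The first, on the Cd28 side, ran from 60803122 to 60850873. A lone site followed at 60879827 to 60880029. The longest stretch, from 60910335 to 60973605, lay between the Cd28 and Icos landmarks. The last, from 60997963 to 61047609, held the Icos landmark.

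**Figure D2:**
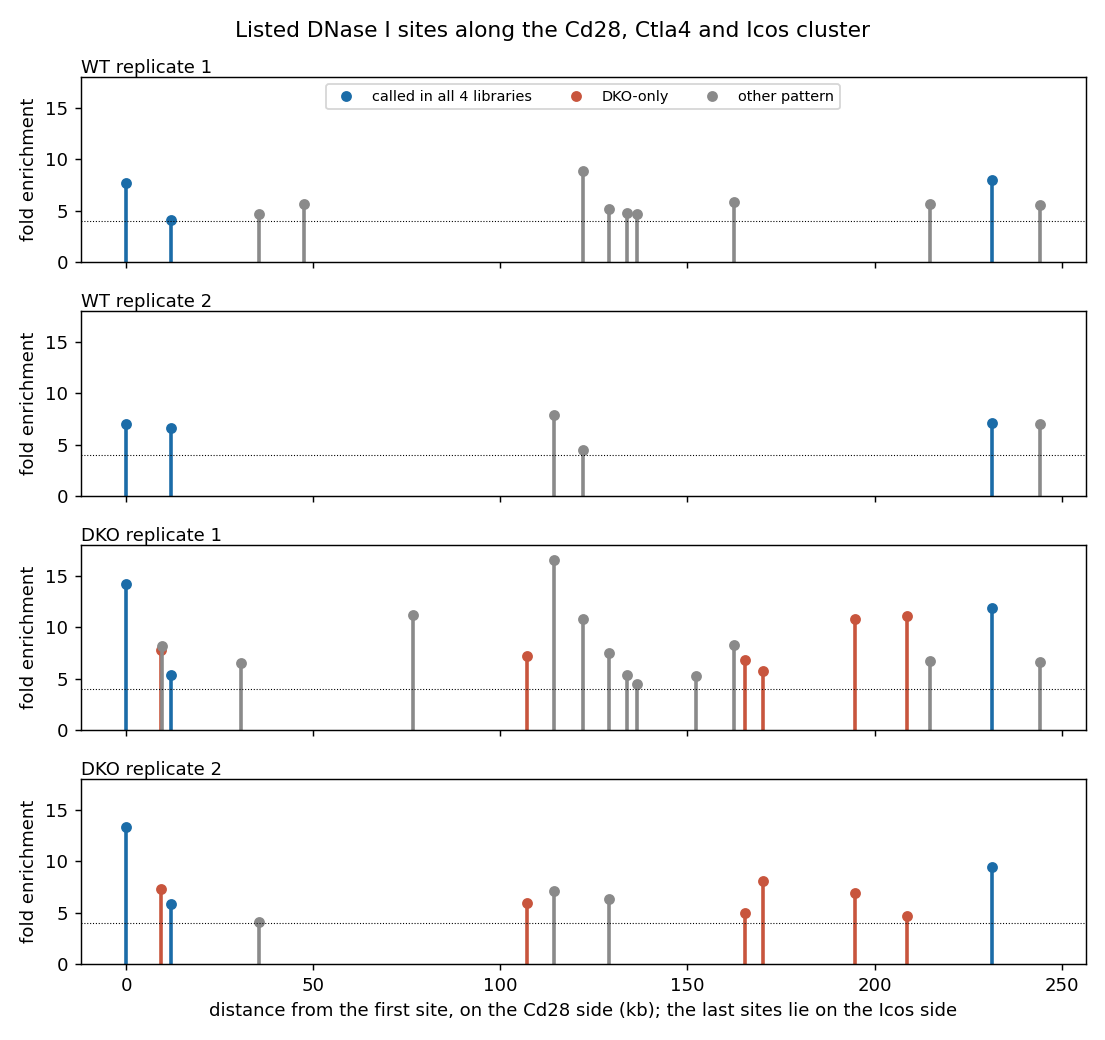
Fold enrichment of each listed site (y axis, 0 to 18) against its distance in kb from site 1 (x axis), with 1 panel per library. Blue sites were called in all 4 libraries, red sites in both DKO and neither WT library (DKO-only) and grey sites in other patterns, and the dotted line marks a fold of 4, just under the lowest in any list. DKO replicate 1 has 21 sites along the whole cluster and WT replicate 2 has 6.

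On the Cd28 side, site 1 (chromosome 1, 60803122 to 60803354, 233 bp) was called in every library. In WT replicates 1 and 2 its fold enrichment was 7.65 and 6.999. DKO replicates 1 and 2 listed it with 14.2 and 13.4. The summit pileups were 24, 20, 58 and 34 fragments in the same order. It was the strongest cluster site of DKO replicate 2, where it ranked 1424 of 21353 peaks by fold. In the other 3 lists it stood higher than 66.8 to 85.6% of peaks.

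Site 4 (60815078 to 60815409), 12.01 kb to the right, was also called in all 4 libraries, and was weak in 3 of them. Its folds were 4.13 and 6.63 in WT and 5.31 and 5.82 in DKO, on 12, 18, 20 and 15 fragments. The WT replicates stood apart in rank here, with the site above 2.09% of the list of WT replicate 1 and above 59.6% of that of WT replicate 2. The intervals of the 2 WT pileups, 6.20 to 21.0 and 10.7 to 28.4 fragments, overlap.

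Between these lay site 2 (60812373 to 60812527), which was DKO-only. It had folds of 7.81 and 7.32 on 31 and 19 fragments in DKO replicates 1 and 2, with summits 11 bp apart. Site 3 (60812796 to 60813016) (0.268 kb further right) was called in DKO replicate 1 alone, with a fold of 8.15. The remaining sites of this side were each called in 1 or 2 libraries. Site 5 (60833905 to 60834054) was called in DKO replicate 1 with a fold of 6.57. Site 6 (60838624 to 60838780) was called in WT replicate 1 and DKO replicate 2 near the listing threshold, with folds of 4.67 and 4.12. Site 7 (60850742 to 60850873), with a fold of 5.60, was the 1 site of the cluster called in WT replicate 1 alone. Site 8, the lone site at 60879827 to 60880029, was called in DKO replicate 1 alone with a fold of 11.2 on 29 fragments. It stood above 70.2% of that list and was the strongest cluster site called in a single library.

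The longest stretch, from 60910335 to 60973605, held 10 sites and none called in all 4 libraries. DKO replicate 1 called all 10, WT replicate 1 and DKO replicate 2 called 5 each, and WT replicate 2 called 2. The highest fold of 3 of the 4 libraries lay here. Site 10 (60917543 to 60917719) was the strongest cluster site of both WT replicate 2 and DKO replicate 1. It had a fold of 7.92 on 19 fragments in WT replicate 2. In DKO replicate 1 the fold was 16.5 on 45 fragments, and in DKO replicate 2 it was 7.13 on 15. WT replicate 1 did not list it. Its 3 summits lay within 4 bp of each other.

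Site 11 (60925360 to 60925514), the next to the right, was the strongest cluster site of WT replicate 1. The fold there was 8.80 on 24 fragments, against 4.46 on 10 in WT replicate 2. In DKO replicate 1 it was 10.8 on 24, and DKO replicate 2 did not list the site. Sites 10 and 11 thus divided the replicates of each genotype, since each was missing from 1 library of 1 genotype. Site 12 (60932137 to 60932408) was listed in 3 libraries, with folds of 5.14 in WT replicate 1, 7.48 in DKO replicate 1 and 6.34 in DKO replicate 2.

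Both replicates 1, of WT and of DKO, shared sites 13, 14 and 16 in this stretch and site 21 further right, and neither replicate 2 listed them. Sites 13 and 14 (60937061 to 60937330 and 60939775 to 60939913) were weak, with folds of 4.72 and 4.66 in WT and 5.34 and 4.45 in DKO. Site 16 (60965669 to 60965899) had folds of 5.86 and 8.25 on 19 and 32 fragments. It lay 163 kb to the right of site 1, but whether it belongs to Ctla4 was not tested. Site 15 (60955353 to 60955556) was called in DKO replicate 1 alone with a fold of 5.21.

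DKO-only sites of this stretch numbered 3. Site 9 (60910335 to 60910475) had folds of 7.24 and 5.98 on 17 and 12 fragments in DKO replicates 1 and 2. Site 17 (60968487 to 60968727) had 6.80 and 5.02 on 29 and 14 fragments. Site 18 (60973371 to 60973605) had 5.75 and 8.13 on 21 fragments in each library. It was the 1 DKO-only site of the cluster with a higher fold in DKO replicate 2 than in DKO replicate 1.

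On the Icos side, site 22 (61034587 to 61034868, 282 bp) was called in every library. It had folds of 7.98 and 7.10 in WT and 11.9 and 9.46 in DKO, on 24, 19, 40 and 24 fragments. Site 21 (61018037 to 61018180) had folds of 5.60 in WT replicate 1 and 6.69 in DKO replicate 1. DKO-only sites 19 and 20 lay to its left. Site 19 (60997963 to 60998132) had folds of 10.8 and 6.95 on 32 and 15 fragments. Site 20 (61011739 to 61011957) had 11.1 on 24 fragments in DKO replicate 1 and 4.66 on 9 fragments in DKO replicate 2. Its summits were 117 bp apart, and those of DKO-only site 17 were 105 bp apart. Sites 1, 13 and 23 also had summits 116, 118 and 197 bp apart across libraries, so the calls joined in these sites may not mark the same position.

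Site 23 (61047246 to 61047609) was the last of the cluster. It was listed in both WT libraries, with folds of 5.54 and 7.05, and in DKO replicate 1 with 6.58. The DKO peak lay at the left edge, with its summit at 61047309 against 61047506 and 61047390 in WT replicates 1 and 2. When an overlap of at least 0.5 of the shorter peak was required, the WT and DKO peaks came apart, and the cluster then held 1 site called in both WT and neither DKO library (WT-only).

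Of the 3 sites called in all 4 libraries, 2 took places that separated the genotypes, in opposite directions when ranked among shared regions but in the same direction when ranked in each library's own list. Among the 8068 regions called in all 4 libraries, ranked by fold within each library, site 1 stood at percentiles 52.2 and 58.6 in WT and 59.1 and 85.2 in DKO, where 100 is the highest. Both DKO values were above both WT values, though the nearest, DKO replicate 1 and WT replicate 2, were 0.50 points apart. Site 22 ran the other way, at 57.6 and 60.8 in WT and 37.0 and 48.6 in DKO. Within each library's own full list both sites stood higher in DKO. Site 1 was then at percentiles 69.0 and 66.8 in WT and 85.6 and 93.3 in DKO, and site 22 at 72.6 and 68.6 in WT and 74.7 and 73.5 in DKO. The direction of site 22 thus depends on the regions it is ranked among. A percentile in a library's own list also depends on the other peaks listed, and the DKO lists were longer. The share of all 8068 regions that stood higher in both DKO lists is not given here. The own-list order therefore says nothing particular to these sites. Site 4 did not separate the genotypes, at 0.38 and 50.5 in WT and 0.62 and 7.49 in DKO.

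Site 22 led site 1 by fold in both WT libraries and site 1 led site 22 in both DKO libraries. Over all 8068 regions, 19.1% ranked higher in both DKO libraries and 19% in both WT libraries. With 1 of 3 cluster sites in each direction, the counts are too few to set against these shares. The pileup intervals of sites 1 and 22 overlapped in each library. In DKO replicate 1 the intervals were 44.0 to 75.0 and 28.6 to 54.5 fragments, and in DKO replicate 2 they were 23.5 to 47.5 and 15.4 to 35.7. In WT replicate 1 both sites had 24 fragments. In WT replicate 2 site 1 had 20 fragments and site 22 had 19, with −log10 p values of 14.21 and 13.95. By these measures site 1 led there, against the order by fold. With lists of equal length site 1 no longer ranked higher in DKO. At a −log10 q of at least 10 site 22 was no longer called in all 4 libraries, since its peak in WT replicate 2 had a −log10 q of 9.93, and no site ranked higher in WT. Without WT replicate 2, sites ranked higher in DKO numbered 2, and without DKO replicate 2 or WT replicate 1, sites ranked higher in WT numbered 2.

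**Figure D3:**
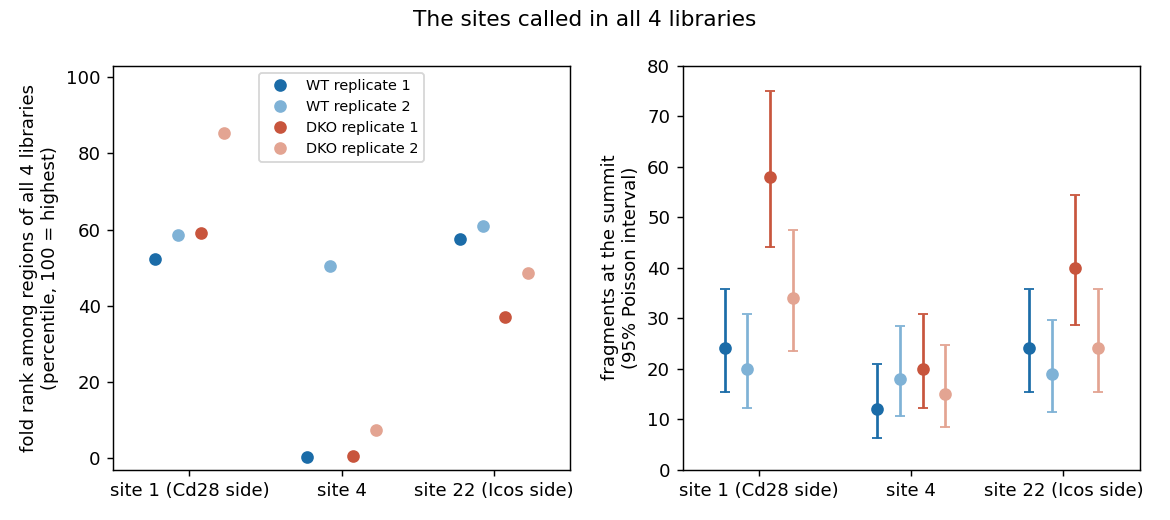
The 3 sites called in all 4 libraries, as the percentile of their fold among the 8068 regions called in all 4 libraries (left) and as fragments at the summit with 95% Poisson intervals (right), 1 point per library. Site 1 is higher in DKO and site 22 higher in WT by percentile, and the intervals of sites 1 and 22 overlap within each library.

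Over the full lists, calls by genotype were one-sided among all regions, with 5593 DKO-only and 246 WT-only, and also in the cluster. DKO-only sites numbered 6 of 23 (26.1%), against 14.3% of all 38986 regions. WT-only sites numbered 0, against 0.631% of all regions, a share so small that 0 of 23 sites does not set the cluster apart. The 3 sites called in all 4 libraries made 13.04%, against 20.7%. A further 5 sites were called in 1 library, 4 of them in DKO replicate 1, where 41.7% of all regions were called in 1 library. At least 6 DKO-only regions were present in 1.90% of the autosomal windows of the same length. That share does not allow for the number of regions in a window, which was 23 in the cluster against a median of 6. The median fold at the 6 sites was 7.52 in DKO replicate 1 and 6.47 in DKO replicate 2. For all DKO-only regions these medians were 8.16 and 6.06. Without DKO replicate 2, the longer DKO list alone gave 10 DKO-only sites, and the sites called in every remaining library rose from 3 to 5. Without DKO replicate 1, the WT-only count was 2, and without WT replicate 2 it was 1. Leaving out a library loosens each class by definition. Shares of all regions with a library left out are not given here, so these counts say nothing particular to the cluster.

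Most of these calls rested on few fragments. At the DKO-only sites the pileups ran from 17 to 32 fragments in DKO replicate 1 and from 9 to 21 in DKO replicate 2. The smallest pileup of any listed peak was 10 and 9 fragments in WT replicates 1 and 2, and 8 in each DKO library. These are minima over whole lists, and the pileup that a call needs rises with the local background. A site missing from a list may still have been open below the thresholds of that list. The running peak numbers of WT replicate 1 skip 1 number between its calls ending at 60965899 and starting at 61018037. DKO-only sites 17, 18, 19 and 20 lie in that stretch of 52.1 kb. A call made there and then removed from the list cannot be assigned to any of them. DKO replicates 1 and 2 also skip 1 number each, between sites 4 and 5 and between sites 4 and 6, and WT replicate 2 skips none in the cluster.

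**Figure D4:**
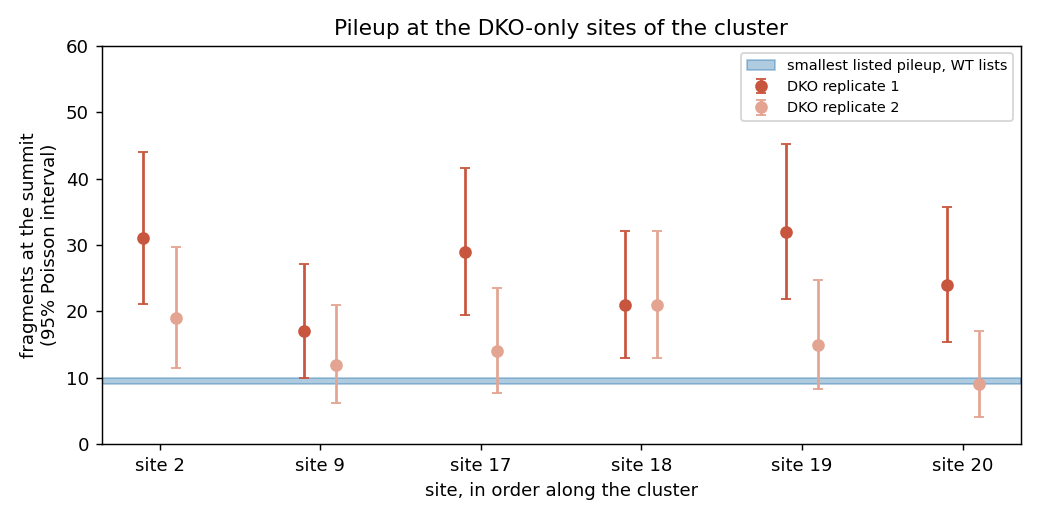
Fragments at the summit of the 6 DKO-only sites in DKO replicates 1 and 2 (y axis, points with 95% Poisson intervals), in order along the cluster. The blue band spans the smallest pileups listed in the WT libraries, 9 to 10 fragments, and the value of site 20 in DKO replicate 2 lies at its lower edge. The band is not scaled for depth or local background, so it is not the limit for a WT call at these sites.

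With every list held to its 11073 peaks of highest −log10 p, the length of the shortest list, no DKO-only site remained in the cluster. Then 5.75% of 18389 regions were DKO-only, 4.61% WT-only and 29.3% called in all 4 libraries. The cluster kept 10 sites, and the libraries had 4, 6, 4 and 4 peaks there, for WT replicates 1 and 2 and DKO replicates 1 and 2. Sites 1 and 22 stayed in all 4 libraries. Site 11 became WT-only, because its DKO replicate 1 peak fell below the minimum −log10 p of 27.3 that this list then had. Of the DKO-only sites, 2 and 18 kept their call in DKO replicate 2 and 19 kept its call in DKO replicate 1. This setting removes peaks from 3 libraries and none from WT replicate 2, whose weakest peak had a −log10 p of 5.40.

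WT replicate 1 shared no more sites of the cluster with WT replicate 2, which had the shortest list, than with either DKO library. WT replicates 1 and 2 shared 5 sites, which is 41.7% of the sites of replicate 1 and 83.3% of those of replicate 2. WT replicate 1 shared 10 of its 12 sites with DKO replicate 1 and 5 with DKO replicate 2. All 6 sites of WT replicate 2 were listed in DKO replicate 1. DKO replicates 1 and 2 shared 11 sites, 52.4% and 91.7% of each. Over all regions, WT replicate 1 shared 51.5% with WT replicate 2, 87.7% with DKO replicate 1 and 73.8% with DKO replicate 2. WT replicate 2 shared 91.6% with DKO replicate 1. DKO replicates 1 and 2 shared 55.2% and 90.7% of each, close to their shares in the cluster. Not every pair was so close. WT replicate 1 shared 41.7% of its 12 cluster sites with DKO replicate 2, against the 73.8% over all regions. DKO replicate 2 shared 41.7% of its 12 with WT replicate 1, against 60.9%. These differences were not tested.

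No call crossed an edge of the window, and narrowing it by 20 kb at each end left the 23 sites as they were. A wider window was not tried, so the edges do decide which nearby calls are counted. On the left, the first call outside the window lay at 60759602 to 60759725 in WT replicate 1 (fold 6.40). Both DKO libraries listed the same place with 11.6 and 8.31. On the right, DKO replicate 1 had its next call at 61096233 to 61096434 (fold 4.93). WT replicate 1 and DKO replicate 2 had theirs at starts 61112140 and 61112138, with folds of 14.4 and 13.5. Both folds were above the highest of the same library in the cluster, 8.80 and 13.4. WT replicate 2 had no call between 60473893 and 62876387 other than its 6 in the cluster.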

How the data were processed

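The 4 DNase-seq libraries have 1 deposited list of peaks each, which were called without pooling. The submitters' processing notes name FastQC, Bowtie2 2.2.5, MACS2 2.1.1 and build mm9. Settings and any control library are not given in the sources used. For each peak the authors deposited a fold enrichment (a ratio), the −log10 p, the −log10 q and a score of 10 times the −log10 q, and these were used within a list to describe, rank or filter. Deposited positions count from 0 and were converted to count from 1.

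The pileup behind a fold was solved from MACS2's definitions (fold as pileup plus 1 over background plus 1, and p as a Poisson tail). A whole number matched all 51 cluster peaks within 0.01 of the −log10 p. Read totals are not in the lists. Classes and the pileup solution were tested on simulated data, and the ranks were not. Ranks used the highest fold per region over the regions called in all 4 libraries. Peak numbers were compared with an exact two-sided permutation test. With 2 libraries per genotype, other values are descriptions.

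The cluster, the landmarks and the lists were chosen with earlier results of these data known. Every site called in all 4 libraries or in 1 genotype was to be named, and the other sites are given more briefly. Planned lists of pathway and marker genes needed an mm9 annotation, which was not used here, and no sequence of a site is printed for the same reason. Replicate numbers come from the titles, and no source says that they pair the libraries. Python 3.11.15, pandas 2.3.3, numpy 2.4.6 and scipy 1.17.1 were used.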

Additional observations from a re-analysis of the deposited data

Results flagged for a closer look

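Peaks on chromosome Y, outside the comparison made here, numbered 55 and 57 in the DKO libraries, replicates 1 and 2, and 0 in both WT libraries. They move with genotype in every library, and their part in the cluster's values cannot be told apart from it.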

How the results depend on the processing

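All alternatives were planned. The log2 difference in peak number, 0.90, turned to −0.29 with lists of equal length and rose to 1.12 and 1.56 at a −log10 q of at least 5 and 10, and over the libraries left out in turn it ran from 0.40 to 1.40. With the replicate number as a block it was again 0.90 (exact permutation p = 0.50, the smallest that this blocked test allows). DKO-only sites, 6 in the full lists, numbered 0 at equal length, 1 at a −log10 q of at least 10 and 6 to 10 without each library. WT-only sites, 0 in the full lists, numbered 1 at equal length, 1 with an overlap of 0.5 of the shorter peak and 0 to 2 without each library. Sites called in all 4 libraries fell from 3 to 1 at a −log10 q of at least 10, and 3 to 5 were called in all remaining libraries without each one. Sites ranked higher in DKO went from 1 to 0 at equal length and to between 1 and 2 without each library. Sites ranked higher in WT went from 1 to 0 at a −log10 q of at least 10 and to between 1 and 2 without each library. For the q thresholds and the libraries left out, shares of all regions and whole-list differences in peak number are not given here. Whether these changes are particular to the cluster was not tested. Equal length removes peaks from 3 lists by construction, and leaving out a library loosens each class by definition. For the other settings the cause was not tested. Cluster peaks rest on 8 to 58 fragments, and the part of depth in these changes was not tested.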
